A study of Mus musculus with 117 samples.

Results

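Complement components and regulators were examined as 9 genes of the 27179 listed in each count file: C1qa, C1qb and C1qc, C1ra and C1s1, C4b, C3, Cfb and Serping1. They were listed by name and not by a threshold on measured values, though earlier results of these data were known. All 9 passed the filter on low counts in every comparison. The study used RiboTag mice, in which Cre recombination adds an HA tag to the ribosomal protein Rpl22, so that anti-HA precipitates the ribosome-bound RNA of recombined cells from a spinal cord lysate. The precipitate is the astrocyte fraction, and the unbound remainder of the same lysate is the flow-through, which stands for the other cells of the tissue but keeps what the precipitation missed. Together 117 libraries in 28 groups were compared, 70 of astrocyte fraction and 47 of flow-through. The comparisons asked how these genes changed with time after a complete crush spinal cord injury (SCI), whether the change differed between the fractions, and how it compared with another Cre line and with postnatal maturation.

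All mice carried RiboTag. The main series used mice of genotype Aldh1l1-CreERT2 -RiboTag, in which tamoxifen given to adults activates Cre in Aldh1l1-expressing cells. Both fractions came from females that were uninjured (n = 4) or at 2 d (n = 5), 5 d, 14 d, 28 d, 42 d and 70 d after SCI (n = 4 each), and from males at 5 d and 14 d (n = 4 each). Replicate 4 of the 5 d female flow-through carries the label male but a title of the female set, and was counted here among the females. The other line, 73.12 GFAP Cre -RiboTag, here called mGfap, has Cre under a mouse Gfap promoter without tamoxifen control. It had both fractions at 14 d after SCI (5 females) and uninjured at postnatal day (P) 63 (3 males and 2 females), and the astrocyte fraction alone at P0 (n = 4, all male), P3 (n = 3), P7 (n = 3), P14 (n = 5), P21 (n = 4) and P35 (n = 4).

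Complement is a cascade of secreted proteins that marks surfaces for removal, draws in leukocytes and can lyse cells. In the classical pathway, C1q binds the surface and activates the proteases C1r and C1s, which cleave C4 and C2 to form an enzyme that cleaves C3. In the alternative pathway, factor B joins cleaved C3 in another such enzyme, and C1 inhibitor blocks C1r and C1s. In the central nervous system C1q is known chiefly from microglia, the resident macrophages, while C3 and C4 are known from reactive astrocytes.

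C1qa, C1qb and C1qc encode the 3 chains of C1q and lie next to each other on the minus strand, at chr4:136895916-136898844, chr4:136880126-136886200 and chr4:136889801-136892936 of mouse build GRCm38.p6. C1ra (chr6:124512621-124523440, plus strand) and C1s1 (chr6:124530344-124542392, minus strand) encode the C1r and C1s proteases. C4b (chr17:34728139-34743902), Cfb (chr17:34856374-34862514) and C3 (chr17:57203967-57228136), all on the minus strand, encode C4, factor B and C3, and Serping1 (chr2:84765360-84775444, minus strand) encodes C1 inhibitor. No exon of these 9 genes overlaps an exon of another annotated gene. C4b, C1ra and C1s1 have near copies: of the 50-base stretches of their exons, 31.6% are shared with C4a, 41.3% with C1rb and 21% with C1s2, so reads there may be split or lost and the levels of these members are uncertain to that extent. C4a lay between 0.163 and 0.273 CPM in the uninjured Aldh1l1 libraries and reached 28.6 CPM in replicate 4 of 2 d flow-through.

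Promoters (250 bases before to 50 after the start) are listed by RefSeq on GRCm38.p6 for 5 of the 9 genes. C1qb and C1qc are shown because these neighbours moved together in most libraries and apart in a few, and C3 because its course over time differed from theirs. Capitals mark matches on either strand to the PU.1 core GAGGAA, the C/EBP motif TTGCNNAA or the NF-kB motif. The windows are chr4:136886151-136886450 (C1qb), chr4:136892865-136893164 (C1qc) and chr17:57228087-57228386 (C3), each printed 5′ to 3′ on the minus strand.
C1qb: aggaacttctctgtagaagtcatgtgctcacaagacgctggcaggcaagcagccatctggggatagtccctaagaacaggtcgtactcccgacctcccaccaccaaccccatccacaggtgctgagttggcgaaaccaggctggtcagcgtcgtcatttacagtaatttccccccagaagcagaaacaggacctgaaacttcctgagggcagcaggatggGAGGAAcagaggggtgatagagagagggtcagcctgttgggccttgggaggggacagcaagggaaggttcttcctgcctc
C1qc: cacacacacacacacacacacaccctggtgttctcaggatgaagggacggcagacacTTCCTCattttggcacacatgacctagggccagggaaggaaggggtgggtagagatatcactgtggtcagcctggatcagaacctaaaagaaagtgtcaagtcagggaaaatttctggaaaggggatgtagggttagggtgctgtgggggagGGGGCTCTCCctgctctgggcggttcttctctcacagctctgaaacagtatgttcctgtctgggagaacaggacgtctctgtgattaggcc
C3: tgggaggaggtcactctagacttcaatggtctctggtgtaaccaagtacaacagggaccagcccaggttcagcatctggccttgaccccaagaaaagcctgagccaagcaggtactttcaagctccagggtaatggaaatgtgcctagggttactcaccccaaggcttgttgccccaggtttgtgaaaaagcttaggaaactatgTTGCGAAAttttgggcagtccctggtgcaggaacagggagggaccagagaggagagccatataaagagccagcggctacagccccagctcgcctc
The PU.1 core stood at -30 to -25 from the start of C1qb and at -193 to -188 of C1qc, where it read TTCCTC on the printed strand. C1qc also had an NF-kB match at -41 to -32, and C3 had a C/EBP match at -45 to -38. Among all 32841 promoters of the table, 28.3% hold the PU.1 core, 10.8% the C/EBP motif and 4.51% the NF-kB motif, so these matches describe the letters only. The promoter of C1ra, not printed, held matches to the C/EBP motif, the PU.1 core and the STAT motif TTCNNNGAA, which 8.3% of promoters hold.

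Libraries held 67253656 to 128400518 counted read pairs in the astrocyte fraction and 40710428 to 136008399 in the flow-through. Levels are given as counts scaled to library size with 1 TMM scaling of all libraries (CPM), and differences as log2 fold changes with their standard error and the Benjamini-Hochberg adjusted p (FDR) of edgeR's quasi-likelihood test over all genes tested, called below 0.01. All 10 astrocyte markers were higher in the astrocyte fraction than in the flow-through at every time in the Aldh1l1 line. Astrocyte libraries also held transcripts of myeloid cells. The summed level of 9 pan-myeloid markers (Ptprc, Tyrobp, Fcer1g, Cd68, Aif1, Laptm5, Spi1, Ctss and Cd53) was 28.1 to 46.7 CPM in uninjured Aldh1l1 astrocyte libraries and 218 to 244 CPM in uninjured flow-through, and none of the 9 was without counts in either group. At 5 d after SCI this sum was higher in astrocyte libraries than in flow-through, as given below. In bulk libraries, fewer cells of a type and less RNA per cell cannot be told apart. In 2 d flow-through, replicates 2 and 4 stood apart from the rest: Tyrobp, a signalling adaptor of myeloid cells, was at 116 and 150.4 CPM there and from 335.6 to 655 CPM in the rest. These replicates were also the shallowest of their group, with 40710428 and 58952608 counts against 69137017 to 75175387.

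The 9 genes followed several courses in Aldh1l1 astrocyte libraries after SCI. The 3 C1q genes rose at all 6 times and peaked at 5 d, C1ra also rose at all 6 times with its highest mean at 28 d, C1s1 rose from 5 d on and Serping1 from 14 d on. C3 and C4b fell at 2 d, C3 was still lower at 5 d, and both rose from 14 d to 70 d. Cfb rose by 1.66-fold to 2.28-fold at the 4 times at which it passed the test. Against uninjured, 5 of 9 members were called higher at 2 d (30.2% of all 18205 genes were), 6 at 5 d (28.7%), all 9 at 14 d (24.5%) and likewise at 28 d (22.8%), then 8 at 42 d (23.3%) and as many at 70 d (23.9%). Lower calls numbered 2 at 2 d (29.9% of all genes) and 1 at 5 d (28.1%). From 14 d on the members' shares thus lay far above those of all genes. The members' median log2 fold change was 0.73, 1.82, 3.04, 3.79, 3.30 and 3.16 at these times, and that of all genes was between -0.04 and 0.05.

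**Figure D1:**
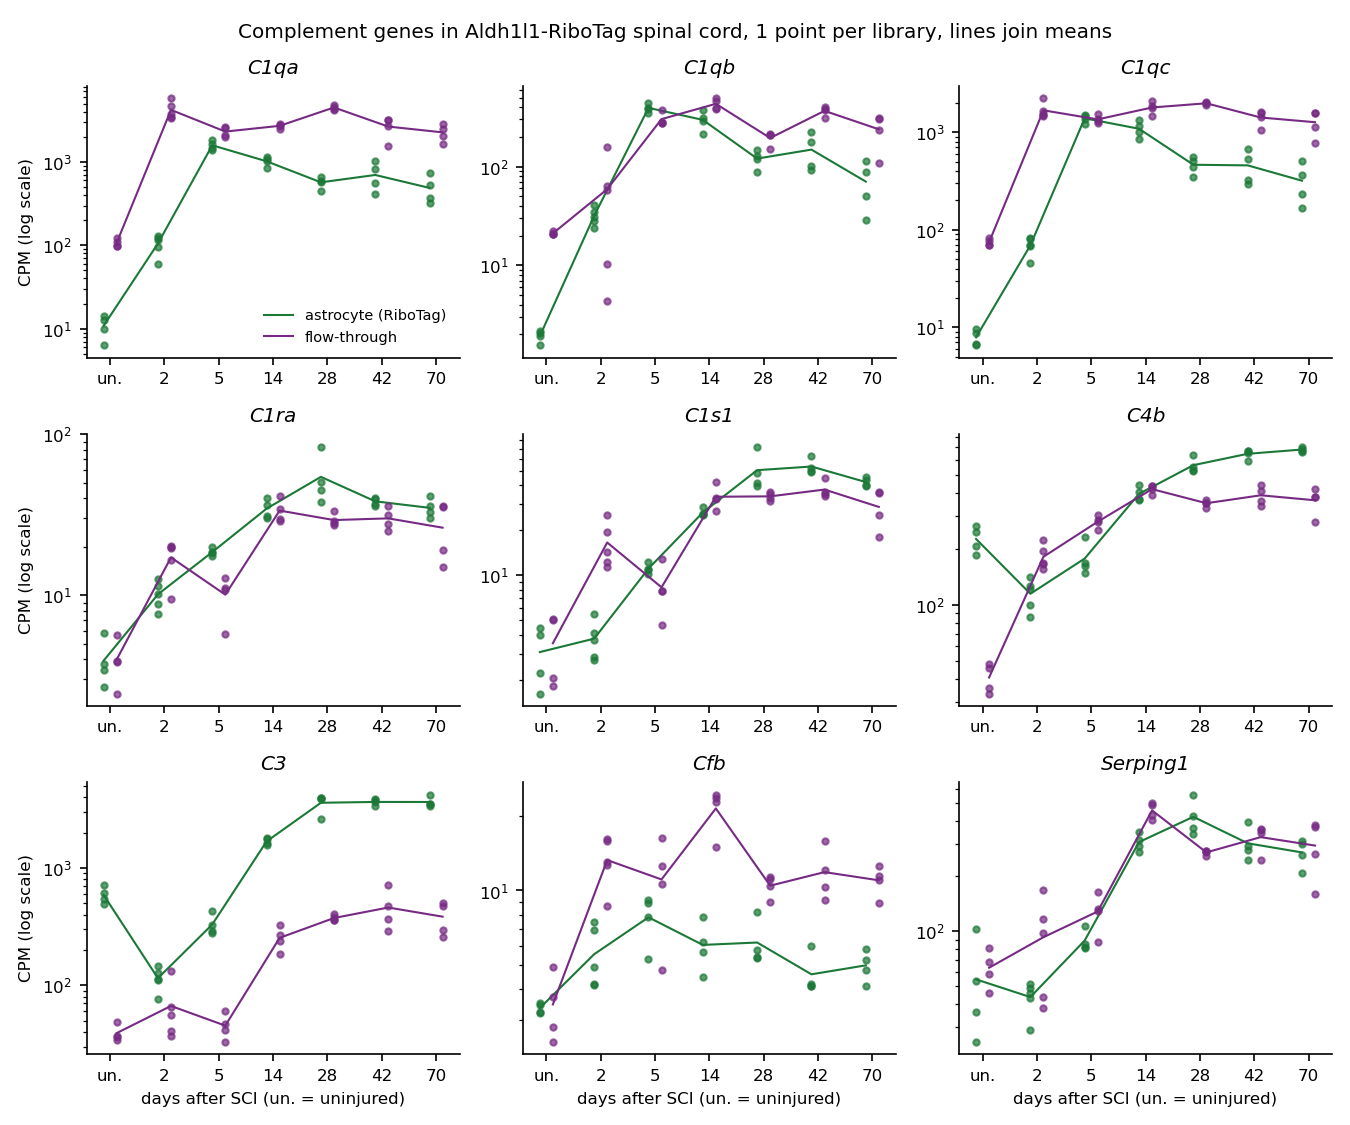
CPM (log scale) of the 9 members by time after SCI, with evenly spaced times, in Aldh1l1 astrocyte and flow-through libraries of females; points are libraries and lines join group means. C3 and C4b in the astrocyte fraction dip at 2 d and end at 3652 and 682 CPM at 70 d, while C1qa, C1qb and C1qc peak at 5 d there.

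C1qa, the A chain of C1q, was at 12.8, 14.2, 9.94 and 6.32 CPM in the 4 uninjured astrocyte libraries. At 2 d it was at 129, 60.4, 96.2, 117 and 123 CPM, and at 5 d at 1484, 1620.1, 1831.8 and 1391 CPM. At 70 d it stood at 365, 325, 737 and 523 CPM. Every library after SCI lay above every uninjured one, and the 5 d libraries did not overlap those of 2 d or 70 d. The log2 fold change was 3.28 ± 0.297 at 2 d (9.73-fold, FDR 3.4e-10), 7.16 ± 0.362 at 5 d (143-fold, FDR 6.9e-15) and 5.50 ± 0.336 at 70 d (45.3-fold, FDR 1.1e-12).

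C1qb, the B chain, went from 2.15, 1.90, 2.08 and 1.55 CPM in uninjured astrocyte libraries to 387, 442.6, 393 and 351 CPM at 5 d, a log2 fold change of 7.65 ± 0.411 (201-fold, FDR 3e-14). C1qc, the C chain, went from 6.53 to 9.49 CPM to a mean of 1390 ± 137 CPM (SD, n = 4), a log2 fold change of 7.44 ± 0.364 (173-fold, FDR 4e-15). Neither gene's libraries after SCI overlapped the uninjured ones. From 14 d to 70 d the C1q genes were the 3 members called lower (15% of all genes were): the log2 difference was -0.998 ± 0.278 for C1qa (FDR 0.0055), -2.01 ± 0.313 for C1qb (FDR 1.8e-05) and -1.71 ± 0.281 for C1qc (FDR 3.2e-05). The call of C1qa was lost without any 1 of 6 of the 8 libraries, with log2 differences from -0.84 to -1.03.

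Markers of other cells moved with the C1q genes. The summed pan-myeloid level in astrocyte libraries was 1109 to 2165 CPM at 2 d, 6407 to 7952 CPM at 5 d, 4726 to 6776 CPM at 14 d and 702 to 1906 CPM at 70 d, and 9 of the 9 markers were higher than uninjured at each of the 6 times. Of 8 microglia markers 5 were higher at 2 d, 6 at 5 d and 5 at 70 d, and of 6 markers of monocyte-derived macrophages 6, 6 and 3 were. Tmem119, a microglia marker, had counts in all of these libraries, at 1.55 to 4.77 CPM uninjured and 51.3 to 56.9 CPM at 5 d. In flow-through the pan-myeloid sum was 4039 to 5380 CPM at 2 d, 3065.5 to 3820 CPM at 5 d and 2418 to 4784 CPM at 70 d. Astrocyte libraries thus lay above flow-through at 5 d and below it at 2 d and 70 d. Summed markers of monocyte-derived macrophages were 308 to 944 CPM in astrocyte libraries at 2 d and 502 to 608 CPM at 5 d. In flow-through they were 85.1 to 139 CPM and 45.9 to 59.5 CPM. The ratio of summed C1q to summed pan-myeloid CPM had a median of 0.578 in uninjured astrocyte libraries, 0.1197 at 2 d, 0.459 at 5 d and 0.727 at 70 d, and in flow-through of 0.871, 1.33, 1.15 and 1.02. Against the summed microglia markers the ratio rose instead. Its median in astrocyte libraries was 0.123 uninjured, 0.782 at 2 d, 2.46 at 5 d and 1.79 at 70 d. In flow-through it was 0.620, 2.47, 2.15 and 2.29 (2.285). Uninjured, the microglia sum was 150.7 to 177.4 CPM in astrocyte libraries and 301 to 333.4 CPM in flow-through. Tmem119 was much further apart, at a mean log2 ratio per mouse of -3.47 between the fractions. The sum in uninjured astrocyte libraries therefore rests in part on genes that do not follow Tmem119, which limits the reading of this ratio. The part of such cells in the levels of the astrocyte fraction was not tested.

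C1ra, the C1r protease, was at 3.76, 5.79, 3.45 and 2.67 CPM in uninjured astrocyte libraries and at 83.9, 50.3, 38.2 and 45.2 CPM at 28 d. The groups did not overlap, and replicate 1 of 28 d was the highest. Its log2 fold change was 1.37 ± 0.200 at 2 d (2.59-fold, FDR 7.6e-07), 3.79 ± 0.223 at 28 d (13.9-fold, FDR 8.4e-14) and 3.16 ± 0.217 at 70 d (8.92-fold, FDR 2.7e-12). C1s1, the C1s protease, was at 3.97, 4.47, 2.22 and 1.62 CPM uninjured, at 2.72, 2.86, 5.50, 3.71 and 4.08 CPM at 2 d and at 51.7, 49.8, 48.9 and 62.6 CPM at 42 d. The 2 d libraries overlapped the uninjured ones (log2 fold change 0.30 ± 0.227, FDR 0.24), and the 42 d libraries lay far above both (4.13 ± 0.256, 17.5-fold, FDR 3.9e-13).

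C4b, the mouse gene of complement C4, was at 185, 207, 264 and 247 CPM in uninjured astrocyte libraries. At 2 d it was at 86.2, 140.3, 99.6, 126 and 121 CPM, at 14 d at a mean of 395 ± 34.2 CPM (SD, n = 4), and at 70 d at 685, 665, 670 and 707 CPM. All 2 d libraries lay below, and all 14 d and 70 d libraries above, the uninjured ones. It fell by 0.97 ± 0.125 on the log2 scale at 2 d (FDR 6.9e-08) and rose by 0.75 ± 0.132 at 14 d (FDR 1.8e-05) and 1.60 ± 0.135 at 70 d (3.03-fold, FDR 8.1e-11). At 5 d the value was -0.38 ± 0.132 (FDR 0.014), and it was called lower without uninjured replicate 1 (-0.46, FDR 0.0039) or without 5 d replicate 4 (-0.53, FDR 0.00072).

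C3, the component on which the pathways converge, was at 492.6, 616, 709 and 540 CPM uninjured and at 76.0, 145.5, 110.4, 128 and 114 CPM at 2 d. At 5 d it was at 326, 279, 288 and 427 CPM, at 14 d at 1623, 1562, 1768 and 1787 CPM, and at 70 d at 3355, 4206, 3544 and 3503 CPM. All libraries of 2 d and 5 d lay below the uninjured range and all of 14 d and 70 d above it. C3 fell by 2.35 ± 0.153 on the log2 scale at 2 d (5.11-fold, FDR 6.3e-14) and by 0.86 ± 0.158 at 5 d (1.82-fold, FDR 2.3e-05). It rose by 1.46 ± 0.160 at 14 d (2.75-fold, FDR 6.3e-09), 2.61 ± 0.167 at 28 d (6.10-fold, FDR 2.2e-13) and 2.64 ± 0.167 at 70 d (6.22-fold, FDR 2.9e-13). Beside these falls, 8 of the 10 astrocyte markers were lower at 2 d, with a median log2 fold change of -2.13, and 10 of 10 were at 5 d (-2.02). From 14 d on, when C3 and C4b were higher, 7 or 8 of the 10 were still lower than uninjured at each time. Aldh1l1 itself had medians of 460.7 CPM uninjured and 416.5 CPM at 2 d.

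Cfb, factor B of the alternative pathway, was at 3.52, 3.22, 3.25 and 3.45 CPM uninjured and at 5.32, 9.15, 7.79 and 8.94 CPM at 5 d. The groups did not overlap, and the log2 fold change was 1.19 ± 0.210 (2.28-fold, FDR 1.3e-05). It was called higher at 2 d, 5 d, 14 d and 28 d, but the calls of 2 d and 14 d were lost without replicate 1 of 2 d (0.60, FDR 0.010) and without replicate 2 of 14 d (0.65, FDR 0.014). At 42 d and 70 d its values were 0.47 ± 0.210 (FDR 0.061) and 0.58 ± 0.209 (FDR 0.020).

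Serping1, C1 inhibitor, varied most among the uninjured astrocyte libraries, at 53.8, 104, 36.3 and 24.95 CPM. It was at 82.4, 85.7, 81.2 and 107 CPM at 5 d and at 557, 425, 340.4 and 366 CPM at 28 d. Uninjured replicate 2 overlapped the 5 d libraries, while all 28 d libraries lay above it. The log2 fold change was 0.68 ± 0.281 at 5 d (FDR 0.037), 1.20 with FDR 5.1e-05 without uninjured replicate 2, and 2.95 ± 0.300 at 28 d (7.72-fold, FDR 7.6e-09). At 2 d it was -0.31 ± 0.265 (FDR 0.30).

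Between successive times, 8 members were higher at 5 d than at 2 d (21.8% of all genes were), all but Cfb. From 5 d to 14 d, 5 members were called higher (12.7% of all genes), which were C1ra, C1s1, C4b, C3 and Serping1. The C1q genes had log2 differences of -0.39 to -0.66 there (FDR 0.065 to 0.30), and C1qa was called lower when these 2 groups were fitted alone (-0.66, FDR 0.00052). From 14 d to 70 d, 3 members were called higher (14.5% of all genes): C3 by 1.18 ± 0.159 (FDR 1.6e-06), C4b by 0.85 ± 0.133 (FDR 1.1e-05) and C1s1 by 0.74 ± 0.224 (FDR 0.0099). The call of C1s1 was lost without any 1 of the 8 libraries and with the replicate number as a block (0.74, FDR 0.018).

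In CPM per kilobase of exon (FPKM), the scale on which genes can be set side by side, C3 led the uninjured astrocyte libraries at 113 ± 18.2 (SD, n = 4). C4b followed at 40.2 ± 6.48 and Serping1 at 29.7 ± 18.9, which overlapped, and C1qa was at 10.0 ± 3.23. At 5 d C1qa (1462 ± 177) and C1qc (1233 ± 122) led, with overlapping ranges, above C1qb (356 ± 34) and C3 (63.4 ± 13). At 70 d C3 (701 ± 72.6) and C1qa (451 ± 173) overlapped at the top. In uninjured flow-through C1qa (98.6 ± 11.4) and C1qc (66.1 ± 5.76) led without overlap, and C3 was at 7.504 ± 1.27 FPKM.

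In flow-through, 6 of 9 members were called higher at 2 d than uninjured (32.6% of all genes were), 8 at 5 d (27.7%), and all 9 at 14 d (24.6%), 28 d (26.4%), 42 d (25.3%) and 70 d (21.8%). Their median log2 fold change ran from 1.75 to 3.42. C4b, which fell in the astrocyte fraction at 2 d, was at 33.4, 45.7, 48.2 and 35.7 CPM in uninjured flow-through and at 166, 169, 223, 193.4 and 155 CPM at 2 d. The groups did not overlap (log2 fold change 2.19 ± 0.134, 4.56-fold, FDR 2e-14). C3 was at 34.2, 36.9, 48.9 and 36.4 CPM uninjured and at 37.1, 65.7, 55.5, 134 and 41.1 CPM at 2 d, with overlap (0.81 ± 0.296, FDR 0.017), and was called without 2 d replicate 1 or 5 (0.98, FDR 0.0038 and 0.94, FDR 0.0066) and with a replicate block (0.88, FDR 0.0039). By 14 d C3 was at 185, 268, 324 and 238 CPM (2.72 ± 0.327, 6.57-fold, FDR 5.1e-08). In flow-through, markers of stroma (8 of 8) and of pan-myeloid cells (9 of 9) were higher at each of the 6 times, and their part in these rises was not tested.

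C1qa was at 97.3 to 123 CPM in uninjured flow-through and at 3346, 4629, 3787, 5781 and 3479 CPM at 2 d, a log2 fold change of 5.34 ± 0.229 (40.4-fold, FDR 1.7e-17). C1qc behaved alike, from 68.9 to 82.5 CPM to 1481, 1660, 1532, 2225 and 1486 CPM (4.53 ± 0.199, 23.1-fold, FDR 2.7e-17). C1qb did not: from 22.1, 20.9, 20.6 and 20.6 CPM uninjured it went to 159, 4.32, 58.01, 10.4 and 63.6 CPM at 2 d. Replicates 2 and 4 lay below every uninjured library and the others above, and the log2 fold change was 1.51 ± 0.521 (FDR 0.011). It was called without replicate 2 (1.81, FDR 0.00022), without replicate 4 (1.79, FDR 0.0013) and by DESeq2 (1.36, FDR 0.0043).

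The ratio of C1qb to C1qc CPM therefore spread in that group. It was 0.268 to 0.298 in uninjured flow-through, 0.00260 to 0.107 at 2 d, 0.0736 to 0.111 at 28 d and 0.140 to 0.295 at 5 d, 14 d, 42 d and 70 d. The 2 d and 28 d ranges lay below those of all other times. In astrocyte libraries the ratio was 0.216 to 0.311 uninjured and 0.403 to 0.520 at 2 d, where it lay above the flow-through of the same time in every library. The ratio of C1qa to C1qc moved less, from 1.40 to 1.49 in uninjured flow-through to 2.26 to 2.79 at 2 d and 2.18 to 2.36 at 28 d. In 2 d flow-through, C1qa was 26.9 to 104 times the CPM of Csf1r, a receptor gene of microglia and macrophages, against 1.03 to 1.47 times uninjured. This ratio was above uninjured at the later times too, at 14.2 to 17.4 at 28 d and 3.88 to 9.76 at 5 d, 14 d, 42 d and 70 d. At 2 d Csf1r was lowest in replicates 2 and 4, at 44.6 and 62.9 CPM, against 94.6 to 126 CPM in the rest. What separates these libraries was not tested.

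**Figure D2:**
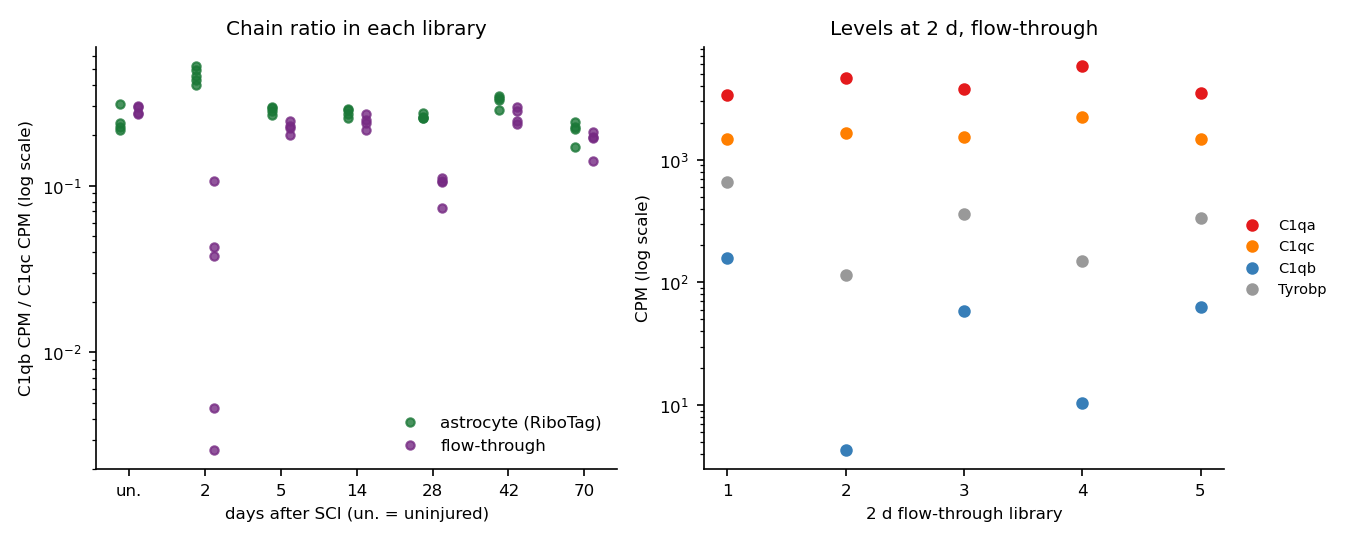
Ratio of C1qb to C1qc CPM (log scale) in each library by time after SCI, with evenly spaced times, for the Aldh1l1 astrocyte fraction and flow-through; each point is a library. The 2 d flow-through libraries spread from 0.00260 to 0.107, below the 0.403 to 0.520 of the astrocyte libraries of 2 d.

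Within the uninjured Aldh1l1 mice, 2 members were higher in the astrocyte fraction than in flow-through (30.7% of all genes were) and 3 were lower (31.3%). C3 was higher by 3.93 ± 0.154 on the log2 scale (15.2-fold, FDR 8e-10) and C4b by 2.48 ± 0.149 (5.59-fold, FDR 3.1e-08). The C1q genes were lower, with log2 differences of -3.22 to -3.44 (FDR 6.7e-10 to 4.8e-07). C1ra, C1s1, Cfb and Serping1 differed by -0.19 to -0.00 with FDR of 0.70 and above, with intervals as wide as -1.03 to 0.64 for Serping1.

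At 2 d no member was called higher in the astrocyte fraction (27.7% of all genes were) and 6 were called lower (28.1%). C1qa differed by -5.36 ± 0.267 (FDR 2.2e-08), C1qc by -4.63 ± 0.203 (FDR 1.1e-08), C1s1 by -2.16 ± 0.276 (FDR 2.9e-05), Cfb by -1.29 ± 0.235 (FDR 0.00043), C1ra by -0.79 ± 0.224 (FDR 0.0080) and C4b by -0.69 ± 0.154 (FDR 0.0018). The call of C1ra was lost with the animal as a block (-0.76, FDR 0.024) and without any 1 of 8 of the 10 libraries. C3 was at 0.75 ± 0.327 (FDR 0.060) and was called higher with the animal as a block (0.89, FDR 0.0070) or without flow-through replicate 4 (1.21, FDR 0.00058). C1qb was at -0.91 ± 0.694 (FDR 0.26). Serping1 was called lower by DESeq2 (-1.08, FDR 0.0034) and by edgeR without flow-through replicate 2 (-1.27, FDR 0.0039) or 4 (-1.25, FDR 0.006).

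From 5 d on, C3 was higher in the astrocyte fraction at every time, by 2.65 ± 0.146 to 3.25 ± 0.134 on the log2 scale (FDR 3.2e-09 to 1.6e-06). C4b was lower at 5 d (-0.76 ± 0.122, FDR 7.5e-05), at -0.17 ± 0.0783 at 14 d (FDR 0.073), and higher at 28 d, 42 d and 70 d by 0.66 to 0.88. C1qa was lower at all of these times, by 0.65 ± 0.116 at 5 d (FDR 0.00019) and 2.99 ± 0.114 at 28 d (FDR 6.3e-10). In all, 2 members were higher and 3 lower at 5 d (32.4% and 32% of all genes), and 1 and 6 were at 14 d (30.7% and 31.7%). The counts were 4 and 4 at 28 d (32% and 32.4%), then 3 and 4 by 42 d (24.1% and 22.7%), then 2 and 4 by 70 d (22.6% and 23.1%). Apart from the 6 lower members at 14 d, these counts lie within 2 of what the shares of all genes would give. The tests at 5 d and 14 d used the female set only. Of the 6, C1qa, C1qb, C1qc and Cfb were below flow-through in every mouse of both sexes at 14 d. C1s1 and Serping1 were below it in every female, but above it in 2 of 4 males each. Their mean log2 ratios per mouse were 0.131 and -0.125 in these males, which were not tested. With the animal as a block, C1qb (0.28, FDR 0.00024) and Cfb (-0.52, FDR 0.0042) were called too at 5 d. Some of the calls counted here were near the threshold. That of Serping1, lower at 5 d, was lost without the filter on low counts (-0.59, FDR 0.011) and in 5 of 8 fits that left out a library, and that of C1ra, higher at 28 d, likewise (0.88, FDR 0.015) and in 6 of 8. C1s1, lower at 14 d and higher at 42 d, lost its call in 5 of 8 and 3 of 8 such fits, and C1qb, lower at 70 d, lost it in 3 of 8 and without the filter (-1.79, FDR 0.012).

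Taking the astrocyte against the flow-through library of each mouse, the log2 ratio of C4b was 2.47 ± 0.251 uninjured (SD, n = 4), -0.67 ± 0.381 at 2 d (n = 5), -0.67 ± 0.323 at 5 d, -0.09 ± 0.087 at 14 d and 0.92 ± 0.224 at 70 d. It was above 0 in 4 of 4 uninjured mice, in 0 of 5 at 2 d and in 4 of 4 at 70 d, without overlap between uninjured and any later time. For C3 the ratio was 3.91 ± 0.099 uninjured, 0.92 ± 0.575 at 2 d, with 4 of 5 mice above 0, 2.88 ± 0.296 at 5 d and 3.30 ± 0.569 at 70 d. For C1qa it was -3.35 ± 0.419 uninjured, -5.34 ± 0.633 at 2 d, -0.54 ± 0.077 at 5 d and -2.26 ± 0.220 at 70 d, and it stayed below 0 in every mouse. The other C1q chains differed from C1qa. The ratio of C1qb was above 0 in 2 of 5 mice at 2 d (0.03 ± 1.836) and in 4 of 4 females at 5 d (0.39 ± 0.118). That of C1qc was above 0 in 2 of 4 females at 5 d (0.04 ± 0.077). At all other times both were below 0 in every mouse. At 28 d the means were -2.99 for C1qa, -2.12 for C1qc and -0.70 for C1qb.

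The change after SCI was tested for a difference between the fractions as an interaction. At 2 d 1 member changed more upward in the astrocyte fraction (30.1% of all genes did) and 6 more downward (20.6%). Upward calls then numbered 3 at 5 d (17.7%), 3 at 14 d (14.5%), 2 by 28 d (15.5%), 3 by 42 d (12.6%) and 2 by 70 d (8.8%). Downward calls at the same times numbered 1 (10.9%), 2 (10%), 1 (12.9%), 2 (10.7%) and 1 (8.9%). The median of all genes was 0.30 at 2 d and 0.04 to 0.19 later, so small values are to be read against it. C4b was the member called at all 6 times in the same direction, with differences of -2.97 ± 0.182 at 2 d (FDR 8.1e-20), -3.02 ± 0.191 at 5 d (FDR 4.1e-18) and -1.52 ± 0.188 at 70 d (FDR 6.6e-09). C3 differed by -2.97 ± 0.346 at 2 d (FDR 2e-10), by -0.94 ± 0.358 at 5 d (FDR 0.032), -1.12 ± 0.358 at 14 d (FDR 0.012) and -0.62 ± 0.357 at 70 d (FDR 0.21). With the animal as a block, C3 was called at 5 d (-0.93, FDR 0.0066) and 14 d (-1.09, FDR 0.0020), C1ra at 5 d (1.06, FDR 0.0036) and Cfb at 70 d (-1.10, FDR 0.0040). C3 at 14 d was also called with RLE factors (-1.17, FDR 0.0098) and by DESeq2 (-1.17, FDR 0.0045).

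Of the C1q genes, C1qa and C1qc changed direction between 2 d and 5 d. C1qa and C1qc rose less in the astrocyte fraction than in flow-through at 2 d, by 1.87 ± 0.326 (-1.87, FDR 2.4e-06) and 1.20 ± 0.314 (-1.20, FDR 0.00093), and more at 5 d, by 2.86 ± 0.347 (FDR 1.6e-09) and 3.38 ± 0.338 (FDR 7.6e-12). C1qb rose more in the astrocyte fraction at 2 d (2.72 ± 0.629, FDR 0.00020), where its flow-through level spread as described. Beside this, 9 of 9 pan-myeloid markers rose more in the astrocyte fraction at 5 d, with a median difference of 2.94, as did 6 of 8 microglia markers. At 2 d, when C1qa and C1qc rose less there, 6 of 9 pan-myeloid markers rose more and 1 less (median difference 1.41), and 1 of 8 microglia markers rose more and 3 less. Cfb rose less at 2 d (-1.05 ± 0.326, FDR 0.0049), 14 d (-1.71 ± 0.344, FDR 6.8e-05) and 42 d (-1.24 ± 0.345, FDR 0.0037), and C1s1 at 2 d (-1.78 ± 0.381, FDR 7.6e-05). The call of Cfb was lost in 6 of 9 fits that left out a mouse at 2 d, with differences from -0.88 to -1.06, and in 4 of 8 at 42 d (-1.04 to -1.18).

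In the mGfap line, 8 of 9 members were higher at 14 d after SCI than in the uninjured P63 astrocyte libraries (27.7% of all genes were). C4b was at 204, 243, 253.1, 252 and 219 CPM uninjured and at 689, 653, 621, 545 and 611 CPM at 14 d, without overlap (log2 fold change 1.502 ± 0.103, 2.83-fold, FDR 1.4e-09). C3 rose by 1.26 ± 0.147 (2.39-fold, FDR 8.4e-07), C1ra by 3.84 ± 0.202, C1s1 by 3.59 ± 0.276 and Serping1 by 3.90 ± 0.307. Cfb was at 0.30 ± 0.165 (FDR 0.13). C1qa went from 7.65, 9.35, 10.0, 9.94 and 9.14 CPM to 268, 63.2, 87.6, 501 and 85.2 CPM (4.55 ± 0.499, FDR 5.6e-07), with replicates 1 and 4 the highest. Tyrobp was highest in these replicates too, at 45.9 and 125 CPM against 14.8 to 20.6 CPM in the others. In the mGfap flow-through all 9 members rose (32.9% of all genes), C1qa by 5.15 ± 0.277 and C3 by 3.22 ± 0.176.

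Set against the Aldh1l1 line without injury, 2 members were lower in mGfap astrocytes (6.86% of all genes) and 0 higher (5.54%): Serping1 by 2.05 ± 0.295 on the log2 scale (-2.05, FDR 8.5e-05) and C1ra by 1.11 ± 0.197 (-1.11, FDR 0.00054). The call of C1ra was lost with the labelled sex as a covariate (-0.97, FDR 0.030), which differs between these groups. C3 was at 0.28 ± 0.154 (FDR 0.21) and C4b at 0.01 ± 0.107 (FDR 0.96, interval -0.20 to 0.22). At 14 d 1 member was higher in mGfap (12% of all genes), C4b by 0.73 ± 0.108 (1.65-fold, FDR 2.8e-05), and 3 were lower (11.4%), C1qa by 2.26 ± 0.463 (-2.26, FDR 0.00085), C1qb by 3.30 ± 0.476 (-3.30, FDR 2.5e-05) and C1qc by 2.85 ± 0.484 (-2.85, FDR 0.00014). C3 differed by 0.04 ± 0.153 (FDR 0.87, interval -0.26 to 0.34). In the same comparison 9 of 9 pan-myeloid and 6 of 8 microglia markers were lower, with summed pan-myeloid levels of 151 to 1045 CPM in mGfap and 4726 to 6776 CPM in Aldh1l1 astrocyte libraries. Oligodendrocyte markers (8 of 8) and markers of oligodendrocyte progenitors (5 of 5) were higher in mGfap. Lum, a stroma marker, was lower in mGfap astrocyte libraries both without injury and at 14 d. It was at 5.30 to 19.6 CPM in uninjured Aldh1l1 and 0.217 to 1.2 CPM in mGfap P63 libraries. At 14 d it was at 19.5 to 46.2 CPM in Aldh1l1 and 3.37 to 8.26 CPM in mGfap. The part of these cells in the differences was not tested, and the line and the way its Cre is switched on cannot be told apart.

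Between the lines the change at 14 d itself differed for C4b, which rose more in mGfap (0.72 ± 0.151, FDR 0.0019, against 7.71% of all genes higher), and for C1qb, which rose less (-2.72 ± 0.703, FDR 0.0094, against 4.94% lower). Both calls were lost with the labelled sex as a covariate (C4b 0.71, FDR 0.013 and C1qb -2.78, FDR 0.033). The call of C1qb was lost as well without any 1 of 16 of the 18 libraries, and that of C4b without uninjured Aldh1l1 replicate 3 (0.48, FDR 0.027) or 4 (0.52, FDR 0.026). Without the latter, Serping1 was called higher (1.51, FDR 0.005). Without mGfap 14 d replicate 4, C1qa (-2.68, FDR 0.00046) and C1qc (-2.99, FDR 4.4e-05) were called lower as well.

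Within the mGfap mice, C3 was higher in the astrocyte fraction than in flow-through by 5.21 ± 0.0827 uninjured (36.9-fold, FDR 1.5e-15) and 3.19 ± 0.255 at 14 d (9.12-fold, FDR 1.8e-06), and C4b by 2.94 ± 0.155 and 0.88 ± 0.128. These 2 were the members called higher at both times (32.6% of all genes uninjured and 23.3% at 14 d), and 4 and 6 members were called lower (35.2% and 23.6%), the C1q genes and Serping1 among them. Per mouse the log2 ratio of C4b was 3.00 ± 0.327 at P63 and 0.91 ± 0.247 at 14 d (SD, n = 5), and that of C3 was 5.22 ± 0.194 and 3.23 ± 0.343.

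Over postnatal maturation in the mGfap line, C3 and C4b rose, and with all libraries edgeR called no other member between P0 and P63. DESeq2 also called C1qb (-1.10, FDR 0.0042) and C1qc (-0.93, FDR 0.0064) lower. By edgeR C1qc was called lower without P0 replicate 1 or 4 or P63 replicate 4 (-1.05 to -1.08), and C1qb without P0 replicate 4 (-1.21, FDR 0.0079). C3 was at 2.28, 3.30, 0.936 and 7.07 CPM at P0, at 52.4, 46.1, 47.2, 54.3 and 55.6 CPM at P14, and at 641, 840.4, 742, 673 and 789 CPM at P63. Between these it was at 24.1 to 27.6 CPM at P7 (n = 3), with means of 13.1 ± 1.63 CPM at P3 (n = 3), 449 ± 72.5 at P21 (n = 4) and 624 ± 224 at P35 (n = 4). The ranges of P0, P3, P7, P14 and P21 did not overlap one another, and those of P21 and P35 did. From P0 to P63 C3 rose by 7.73 ± 0.423 on the log2 scale (212-fold, FDR 7e-14), of which 3.89 ± 0.353 by P14 (FDR 1.1e-09) and 3.84 ± 0.317 from P14 on (FDR 1.1e-09). C4b was at 22.1, 31.6, 11.8 and 30.7 CPM at P0 and at 204 to 253.1 CPM at P63 (3.27 ± 0.196, 9.61-fold, FDR 9.4e-14).

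By P14, 2 members were higher than at P0 (24.6% of all genes), C3 and C4b, and 2 were lower (22.7%), C1qb by 1.53 ± 0.369 (-1.53, FDR 0.00085) and Cfb by 1.26 ± 0.301 (-1.26, FDR 0.00079). From P14 to P63, 3 were higher (12.2%), with Cfb by 1.13 ± 0.288 (FDR 0.0027, lost without P14 replicate 3 at 0.97, FDR 0.011), and from P0 to P63 2 were higher (25.1%). C1qa had a mean of 12.1 ± 7.72 CPM at P0 and 9.22 ± 0.951 at P63 (-0.41 ± 0.414, FDR 0.41). C1ra was at 0.0490, 0.244, 2.82 and 0.193 CPM at P0 and at 1.21 to 2.20 CPM at P63. Replicate 3 of P0 lay above all P63 libraries and the others below (1.17 ± 0.639, FDR 0.11), and without it C1ra was called higher (3.53, FDR 2.5e-07). The P0 mice were all male, so age and sex cannot be told apart fully. Markers of astrocytes and of other cells moved as well between these ages. Of the astrocyte markers 7 of 10 were higher at P63 than at P0 and 1 was lower, and 6 of 8 oligodendrocyte markers and 3 of 5 of their progenitors were higher. Lower were 6 of 8 stroma markers (1 was higher), 6 of 6 of endothelia, 3 of 5 of Schwann cells and 6 of 8 of microglia. The summed stroma level was 3964 to 9470 CPM at P0 and 280.4 to 430.9 CPM at P63, that of Schwann cells 6467 to 19987 and 1019 to 2011 CPM, and that of oligodendrocytes 3688 to 8504 and 10254 to 14339 CPM. Their part in the changes of the members with age was not tested.

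**Figure D3:**
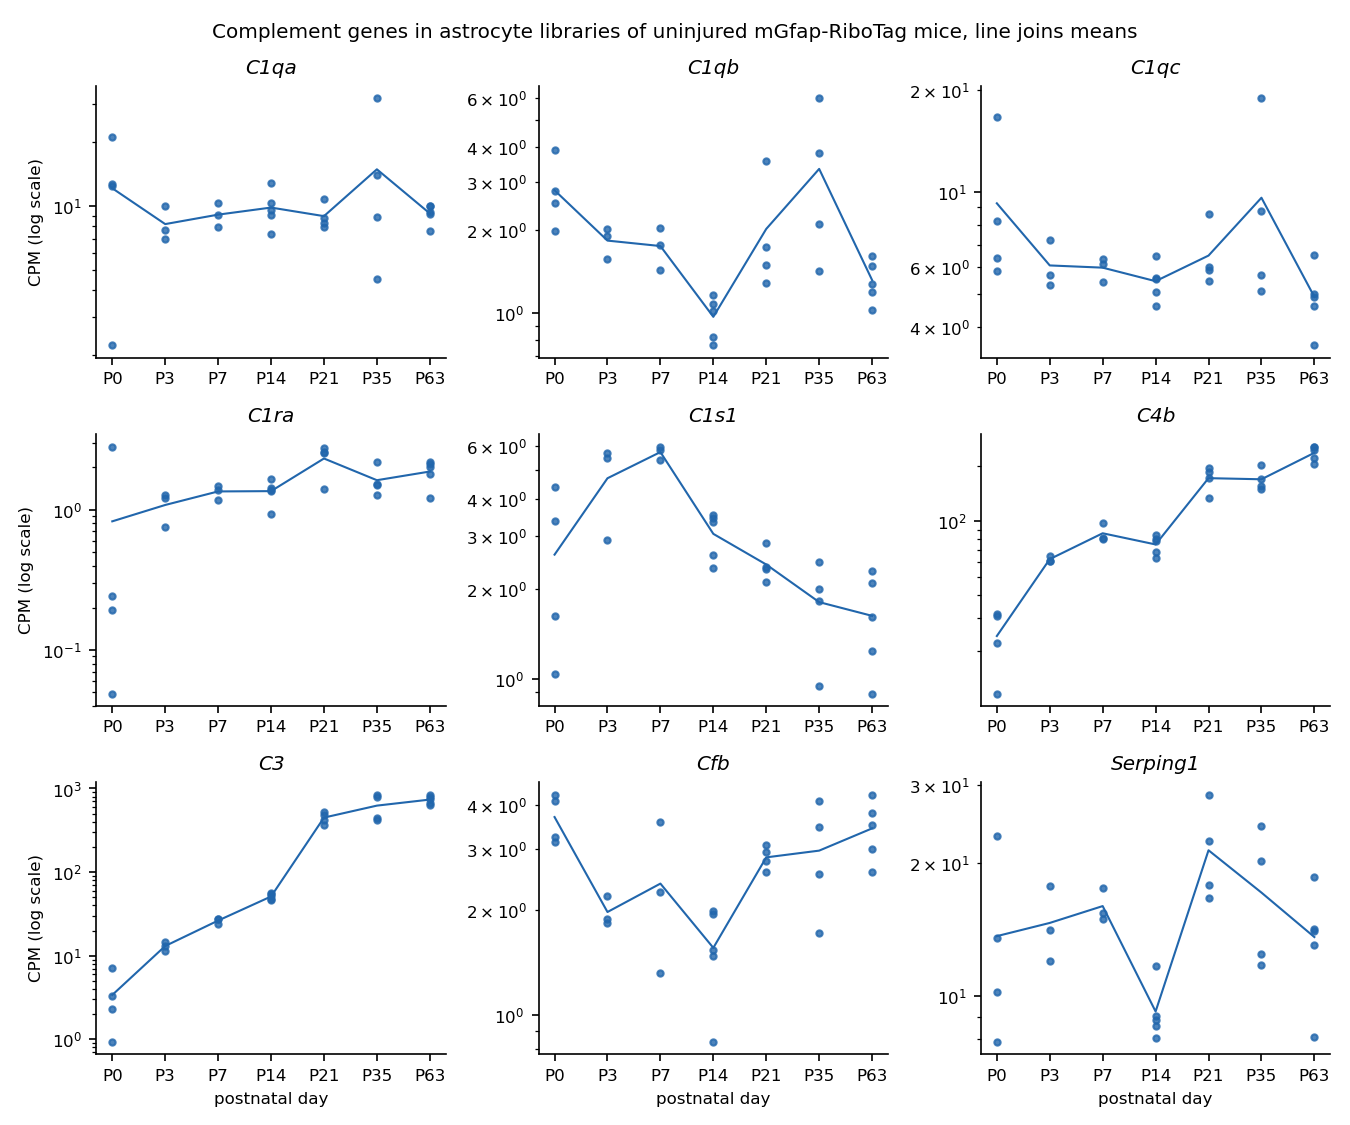
CPM (log scale) of the 9 members in uninjured mGfap astrocyte libraries by postnatal age, with evenly spaced ages; points are libraries and lines join group means. C3 climbs from a mean of 3.39 CPM at P0 to 737 CPM at P63 and C4b from 24.04 to 234 CPM, while C1qa is at means of 12.1 and 9.22 CPM at these ages.

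Males and females were compared at 5 d and 14 d in the Aldh1l1 line. In the astrocyte fraction 0 of 9 members were called by edgeR (0.0227% of all genes higher and 0.0283% lower in males), and none had an FDR under 1. The interval of the log2 difference was -0.25 to 0.11 for C3, -0.26 to 0.13 for C4b and -0.27 to 0.28 for C1qa. In flow-through 0 of 9 were called (0.241% and 0.0267%), and C4b had the smallest FDR, 0.038, with a difference of -0.24 ± 0.0663. DESeq2 called this difference (-0.25, FDR 0.0057). The test took both times together, and the sexes were not tested at each time. In 14 d flow-through every member had a lower mean in males. C1ra was at 12.15 ± 2.01 FPKM in females and 7.474 ± 1.03 in males (SD, n = 4 each), and Serping1 at 248.6 ± 25.6 and 185.9 ± 17.2. At 5 d C1ra, C1s1 and Cfb had higher means in males and the other members lower ones. The males had no uninjured libraries here, so their change after SCI was not computed.

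Of 41 other complement genes, 35 were tested in Aldh1l1 astrocytes. At the 6 times in turn, 11, 13, 15, 17, 17 and 18 were higher than uninjured and 7, 5, 1, 1, 2 and 2 lower. The shares of all genes stand with the members above, for higher calls at every time and for lower calls at 2 d and 5 d. At 14 d, 28 d, 42 d and 70 d, 8611, 7633, 7881 and 8253 of all 18205 genes were called in either direction. At 2 d the count of higher genes was near the share of all genes. The median log2 fold change of the other complement genes was -0.58 at 2 d and 0.89 to 1.35 later. The receptor genes, C3ar1, C5ar1, C5ar2, Itgam, Itgax, Itgb2, Cr2 and Vsig4, had 6 of 8 higher at each time. At 5 d C3ar1, the receptor of the C3a fragment, rose from a mean of 0.539 to 255 CPM (log2 fold change 8.83 ± 0.454, FDR 1.4e-14), Itgax, an integrin subunit that binds cleaved C3, by 7.95 ± 0.484 (FDR 2.4e-13), and C5ar1, the C5a receptor, by 7.10 ± 0.344 (FDR 3.3e-15). At 70 d Cfi, factor I, which cleaves C3b, rose from 0.0794 to 10.8 CPM (7.02 ± 1.13, FDR 1.1e-05). None of the 5 terminal pathway genes tested was called higher at 2 d or 5 d, 1 was at 14 d, 28 d and 42 d, and 3 were at 70 d. In flow-through 7 of the 8 receptor genes were higher than uninjured at 5 d and at 70 d. Compared with flow-through, 6 of 8 were higher and 1 lower in the astrocyte fraction at 5 d. At 28 d 5 of 8 were lower there and at 70 d 4 of 8, with 0 higher. Of all genes, 11346 of 17614 were called in either direction between the fractions at 5 d, 11313 of 17573 at 28 d and 8056 of 17632 at 70 d. The shares in each direction stand with the members above. Pan-myeloid markers rose in both fractions, and their part in the receptor rises was not tested.

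Across the 29 female Aldh1l1 astrocyte libraries, which share their time points, C3 and C4b had a Pearson correlation of log2 CPM of 0.987, and C1qa had 0.993 with C1qc and 0.983 with C1qb. C1s1 and Serping1 stood at 0.958. C1qb with C3 was at 0.263 and Cfb with C3 at -0.112. Among 18196 genes, those most like C1qb were Trem2 (0.996), Lyz2 (0.993) and Unc93b1 (0.990). Those most like C3 were Ggt5 (0.994), Lamb2 (0.986) and Nxn (0.985), the same 3 genes as for C4b. For C1qa the nearest was Ly86 (0.988), for C1qc Trem2 (0.988), for C1ra Ccn5 (0.982), for C1s1 Tfcp2l1 (0.985) and for Serping1 Asap3 (0.973). Cfb had no gene above 0.802, the value of Shisa5.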

How the data were processed

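RNA was sequenced from 117 spinal cord libraries as paired reads of 50 bases. The deposited counts are whole-number read-pair counts per Entrez gene, which the authors made by trimming with Trimmomatic, aligning with HISAT2 to mm10 and counting with featureCounts (tools and build per the submitters' processing notes). Reads shared by near copies may be lost or split by such counting. From these counts, genes passing edgeR's filterByExpr were tested with TMM scaling and quasi-likelihood F tests (edgeR 4.0.16, limma 3.58.1, R 4.3.3), with Benjamini-Hochberg adjustment over all genes tested and calls at an FDR below 0.01. The test was also run on simulated counts in which few genes changed. That run cannot show how the FDR holds when as many genes change as after SCI. Intervals are 95% and made from the standard error. CPM used 1 TMM scaling of all libraries, FPKM the union of RefSeq exons on GRCm38.p6, and log2 ratios per mouse an offset of 0.05 CPM.

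The members and lists (other complement genes, markers of astrocytes, microglia, pan-myeloid cells, monocyte-derived macrophages, stroma, endothelia, Schwann cells, oligodendrocytes and their progenitors) were chosen with earlier results of these data known. Named genes were the 9 members, the 3 other complement genes with the largest fold change at 5 d and at 70 d past the threshold with at least 1 CPM in a group, the near copies, and the 3 genes most like each member. Groups came from the labels. Replicates of a group differed beyond sampling noise in every pair (lowest chi-square per degree of freedom 19.3). The labels number replicates without naming animals, so p-values measure the spread between these samples. Astrocyte and flow-through libraries with 1 number are the bound and unbound parts of 1 lysate and were taken as the same mouse, and their deviations from the group means correlated at a median of 0.089 over 29 Aldh1l1 pairs and 0.17 over 10 mGfap pairs. Alternatives were RLE factors, no filter on low counts, DESeq2 1.42.0, the compared groups alone, a replicate or animal block, labelled sex as a covariate, and leaving out each library.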

Additional observations from a re-analysis of the deposited data

Results flagged for a closer look

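In 12 of 234 combinations of a member and a group of 4 to 5 libraries, 1 library lay further from the rest than Dixon's 95% limit on log2 CPM, and chance marks about 1 in 20 such groups. In Aldh1l1 flow-through, C1qb was at 371.5 CPM in replicate 2 of 5 d, with 274 to 285.6 CPM in the others, and at 149.2 CPM in replicate 4 of 28 d, with 208.8 to 211.7 in the others. C1qc was at 2224.7 CPM in replicate 4 of 2 d flow-through, above 1481.3 to 1659.6 in the others, in a library whose C1qb was among the lowest. C1ra was at 9.42 CPM in replicate 3 of 2 d flow-through, below 16.63 to 20.32, and at 1.411 CPM in replicate 2 of the mGfap P21 astrocytes, below 2.538 to 2.754. C1s1 was at 28.58 CPM in replicate 2 of the 14 d astrocytes, above 25.13 to 25.67.

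C3 was at 32.49 CPM in replicate 4 of the 5 d male flow-through, below 40.74 to 42.19, and at 2601.5 CPM in replicate 3 of the 28 d astrocytes, below 3879.8 to 3976.4. Cfb was at 14.93 CPM in replicate 4 of 14 d flow-through, below 22.74 to 24.3, at 8.189 CPM in replicate 1 of the 28 d astrocytes, above 5.351 to 5.731, and at 5.952 CPM in replicate 2 of the 42 d astrocytes, above 4.104 to 4.218. Serping1 was at 244.96 CPM in replicate 4 of 42 d flow-through, below 343.3 to 363.

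The change at 14 d differed between the lines by the interaction test, mGfap minus Aldh1l1, for C1qb (log2 difference -2.715) and C4b (0.7163).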

How the results depend on the processing

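No member changed direction past the threshold under any alternative. Of 360 values (9 members in 40 comparisons), DESeq2 gained 12 calls, RLE factors gained 1, leaving out the filter on low counts lost 6, and the replicate or animal block gained 8 and lost 2. The compared groups alone gained 1 call and lost 1 (C1s1 in 5 d flow-through, 1.28, FDR 0.015), and leaving out a library gained 29 and lost 95 of 3294 values. With the replicate block, C3 in 2 d flow-through was at 0.88 (FDR 0.0039) and C1s1 between 14 d and 70 d at 0.74 (FDR 0.018), and the other 8 calls that this block changed stand beside their results. The number of members called moved by over 1.5 times in few comparisons. For mGfap against Aldh1l1 uninjured astrocytes it went from 2 to 1 with labelled sex as a covariate. For the difference in change between the lines it went from 2 to 1 without the filter and to 0 with the sex covariate, and leaving out a library gave 0 (without uninjured Aldh1l1 replicate 3) to 4 (without mGfap 14 d replicate 4). For P63 against P0 it went from 2 to 4 with DESeq2, which also called C1qb (-1.10, FDR 0.0042) and C1qc (-0.93, FDR 0.0064) lower, and leaving out a library gave 2 to 4. For males against females in flow-through it went from 0 to 1 with DESeq2. Leaving out a mouse gave 3 to 5 of the 5 members called at 42 d and 1 to 4 of the 3 at 70 d for the difference in change between fractions, the lowest without 70 d replicate 3. The cause was not tested. Over all genes 583 in astrocyte libraries and 4540 in flow-through had an unadjusted p under 0.05 between the sexes. Depth limits C1ra at P0, with as few as 6 counts in a library, and near copies limit C4b, C1ra and C1s1.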
